A study of Mus musculus with 6 samples.

Results

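The 10 genes Csf1r, Lyz2, Cd163, Mpeg1, Cd68, Fcgr1, Fcgr3, Ly86, Adgre1 and Cd14, a list of monocyte and macrophage genes picked by symbol, were taken from the 21851 genes measured in mouse hematopoietic stem cells (HSCs). Bulk RNA-seq was made from bone marrow HSCs of mice given ionizing radiation (IR, 3 libraries) and of control mice (Ctrl, 3 libraries), all of wild-type (WT) genotype. The sort, per the series design, kept lineage-negative cells that carried Sca-1, c-Kit and CD150 and lacked Flt3 and CD48. Strain, age and sex of the mice, the radiation dose, the time after exposure, the antibodies of the lineage mix and the number of mice behind a library go unstated in the sources used here. All 10 genes were found, and 9 passed a filter of at least 1 FPKM (fragments scaled by transcript length and library depth) in at least 3 libraries.

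Monocytes arise in the bone marrow from stem cells by way of granulocyte and monocyte progenitors, and macrophages either descend from them or renew in place. The receptor for macrophage colony-stimulating factor (CSF1) drives their survival and growth, and the transcription factors PU.1 and IRF8 switch on their genes. These cells take up particles through Fc and scavenger receptors, sense bacterial lipids through CD14 and Toll-like receptors, and digest what they take up in lysosomes. Stem and progenitor cells carry RNA of some of these genes before they commit to the lineage, so RNA of such genes in sorted HSCs does not by itself mark mature cells.

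Of the 10 genes, 7 were lower in IR HSCs, none was higher, Cd68 and Fcgr3 were not called, and Fcgr1 missed the filter. Csf1r and Cd163 averaged 33.6% and 33.4% below their Ctrl means, Ly86 21.7% and Lyz2 14.4% below, while Fcgr3 stood at nearly the same level in both groups. A gene was called at a Benjamini-Hochberg adjusted p under 0.05 over all 10281 genes tested (limma on log2(FPKM + 1)). By that rule 28.9% of all genes tested were lower in IR and 25.8% were higher, so 54.7% were called in all. All IR libraries lay below all Ctrl libraries for 7 members and above them for none, against 32.5% and 29.1% of all genes tested. The median log2 fold change was -0.34 over the 9 tested members and -0.01 over all genes tested. Adgre1 passed the filter through its Ctrl libraries alone, and Mpeg1 would not have passed without them, so for these the filter favoured genes higher in Ctrl, and the count of members that passed is no support for a fall. With a filter on the mean of all 6 libraries, chosen after seeing the data, Adgre1 was left out and 6 of 8 members were lower. In bulk RNA, fewer cells that carry a transcript and less of it per cell cannot be told apart.

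**Figure D1:**
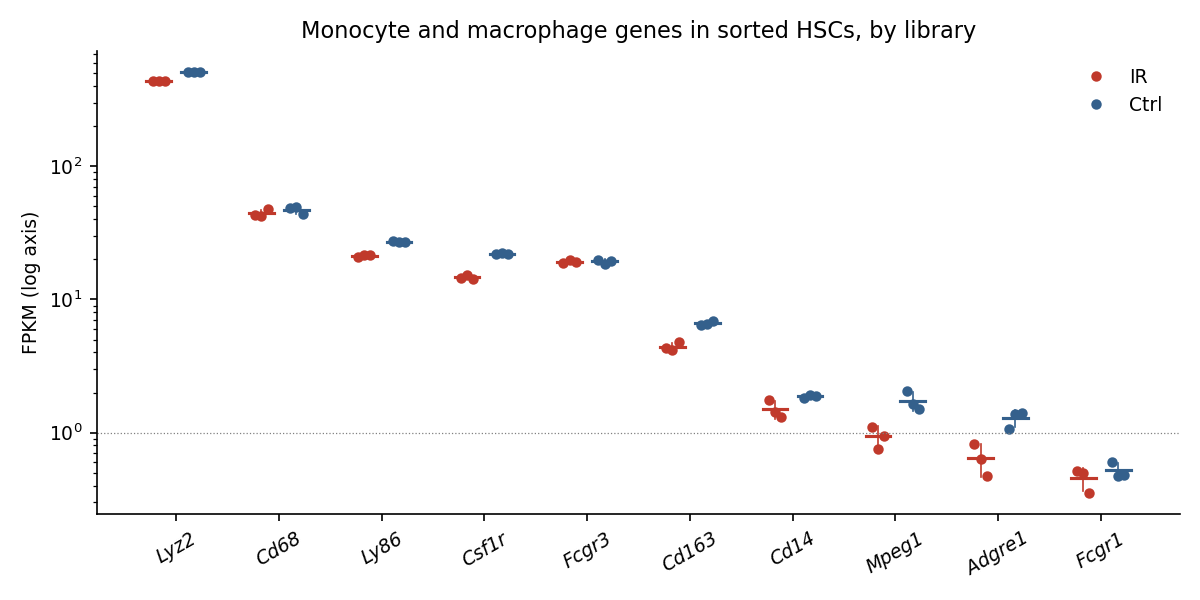
FPKM of the 10 genes in each library, on a log axis, with IR (red) left of Ctrl (blue); points are libraries, horizontal bars the means and vertical lines the SD (n = 3 each), and the dotted line marks the filter at 1 FPKM. IR points lie below all Ctrl points for Lyz2, Ly86, Csf1r, Cd163, Cd14, Mpeg1 and Adgre1 and overlap them for Cd68, Fcgr3 and Fcgr1.

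Csf1r encodes the CSF1 receptor, a tyrosine kinase of monocytes and macrophages (chromosome 18, 61100598 to 61132149, GENCODE M21 on GRCm38). It had 14.5, 15.2 and 14.3 FPKM in IR libraries, against 22.0, 22.5 and 21.8 FPKM in Ctrl libraries. The groups did not overlap, and the gap between them was far wider than the spread within either. The log2 fold change was -0.56 (SE 0.038, 95% confidence interval -0.64 to -0.47, limma adjusted p = 1.94e-06), and it lay between -0.59 and -0.54 when any library was left out. Between 965 and 1079 fragments stood behind the value in an IR library and 1474 to 1722 in a Ctrl library, as estimated from the steps between low values.

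The partners of Csf1r were read beside it. Csf1, its ligand, averaged 0.670 ± 0.030 FPKM in IR and 1.07 ± 0.024 FPKM in Ctrl (SD, n = 3 each) and fell by 0.31 on the log2(FPKM + 1) scale (limma adjusted p = 0.00226), but it passed the filter through its Ctrl libraries alone. Il34, the second ligand, was listed at 0 in every IR library and at a mean of 0.163 FPKM in Ctrl, under the filter. Of the transcription factors known to drive the gene, Irf8 fell to 37.5 ± 1.81 FPKM in IR, against 51.5 ± 0.696 FPKM in Ctrl (limma adjusted p = 6.50e-06), and Spi1, which encodes PU.1, fell to 126 ± 3.26 FPKM in IR, against 145 ± 3.76 FPKM in Ctrl (adjusted p = 0.000181). Cebpa rose, in contrast, along with the adaptor gene Grb2 and the ETS factor gene Fli1. Of the other tested factor genes in this list, Runx1 and Ets2 were not called (limma adjusted p = 0.113 and 0.0563). Cebpb and Egr1 fell (limma adjusted p = 0.00847 and 0.000201). Cebpa and the genes named after it up to here were picked after their values were seen. Across 25 genes of this axis other than Csf1r, 16 were tested; 9 fell, 3 rose and 4 missed the threshold, at a median of -0.12 on the log2 scale. With the filter on the mean, which leaves out Csf1, 8 of 15 fell. Ptpn6, the phosphatase SHP-1 that restrains myeloid receptors, was 1.11-fold lower in IR.

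**Figure D2:**
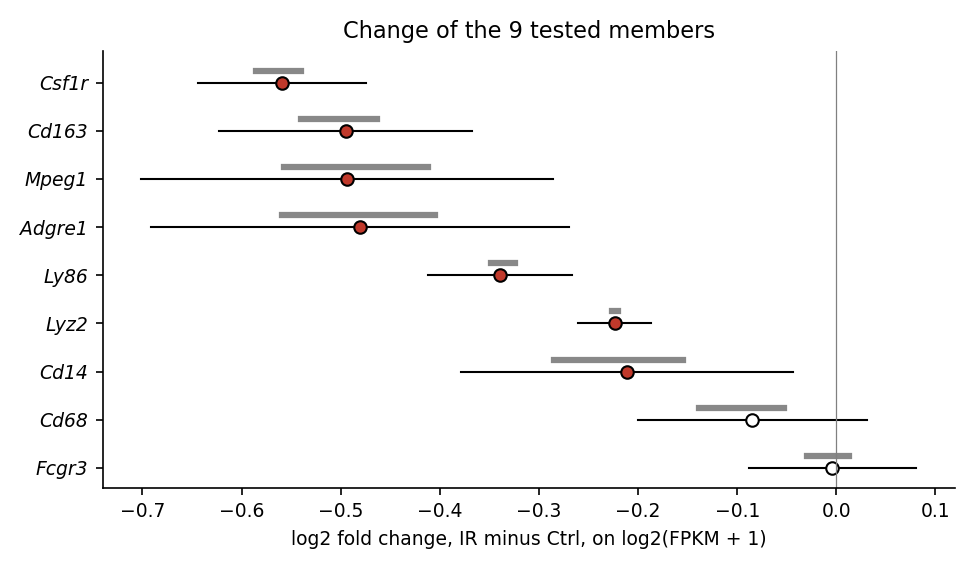
Log2 fold change of the 9 tested members, IR minus Ctrl on the log2(FPKM + 1) scale, with the 95% confidence interval (black line) and the range over fits that leave out 1 library (grey bar above it); filled points are called and open points are not. Csf1r has the lowest value on this scale, -0.56, and the intervals of Cd68 and Fcgr3 span 0. The scale understates changes of low genes. Ratios of the Ctrl mean to the IR mean are 2.01 for Adgre1, 1.85 for Mpeg1 and 1.505 for Csf1r.

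Both Fcgr members encode receptors for immunoglobulin G. Fcgr3, the low-affinity activating receptor CD16 (chromosome 1, 171051174 to 171064935), had 18.9, 19.7 and 19.2 FPKM in IR libraries, against 19.8, 18.6 and 19.6 FPKM in Ctrl libraries. The groups lay over each other. Its log2 fold change was -0.0040 with a 95% confidence interval of -0.09 to 0.08 (limma adjusted p = 0.935). Fcgr1, the high-affinity receptor CD64 (chromosome 3, 96282909 to 96293969), had 0.514, 0.497 and 0.350 FPKM in IR libraries, against 0.601, 0.475 and 0.482 FPKM in Ctrl libraries. These groups overlapped too (exact permutation test, 2-sided, p = 0.6, where 3 against 3 libraries cannot go below 0.1), and the values rest on about 13 to 21 fragments in an IR library and 18 to 23 in a Ctrl library, too few to show a modest difference. The inhibitory receptor gene Fcgr2b had 29.95 ± 1.48 FPKM in IR and 32.7 ± 1.51 FPKM in Ctrl (limma adjusted p = 0.0359), and Fcgr4 stayed under the filter. The call of Fcgr2b was lost in 7 of 16 alternative fits, among them those without Ctrl replicate 1 or 2 or IR replicate 1 or 3 (adjusted p = 0.0694 to 0.135).

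Fcgr3 and Fcgr2b share part of their sequence, and this stretch is shown because a read that lies wholly inside it matches both genes. Of all windows of 50 bases in the longest Fcgr3 coding transcript, 12.8% also occur in Fcgr2b. The coding sequences are 87.5% identical over 782 aligned bases (GENCODE M21), and the following 90 bases, coding bases 263 to 352 of Fcgr3 and 278 to 367 of Fcgr2b, are the same in both, so no base is in capitals.
Fcgr3 and Fcgr2b: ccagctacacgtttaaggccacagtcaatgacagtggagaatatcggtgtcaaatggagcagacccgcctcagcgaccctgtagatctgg
No source used here tells how the authors' processing split such reads, so the level of Fcgr3 carries that uncertainty.

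Fcer1g, the signalling chain that Fcgr1 and Fcgr3 need for surface expression in mice, was called, unlike Fcgr3. It had 83.8, 82.3 and 82.3 FPKM in IR libraries, against 139, 128.5 and 137 FPKM in Ctrl libraries, and fell by 0.69 on the log2 scale (limma adjusted p = 1.16e-07). The log2(FPKM + 1) of Fcer1g minus that of Fcgr3 averaged 2.05 in IR and 2.74 in Ctrl, with no overlap between the groups. An exact permutation test, 2-sided, gave p = 0.1, the smallest possible (adjusted p = 0.15 over 3 pairs chosen after their values were seen). Tyrobp, which encodes the related adaptor DAP12, fell to 216 ± 6.35 FPKM in IR, against 256 ± 11.8 FPKM in Ctrl (limma adjusted p = 0.000197). Fcgrt, the neonatal Fc receptor that recycles immunoglobulin G, was 1.93-fold lower. In the list of Fc receptor genes and their kinases, 9 of 12 genes other than the members were tested; 6 fell, Fcrla rose, and the kinase genes Syk and Lyn missed the threshold (median -0.12). Fcrla, Syk and Lyn are named after their values were seen, and without Ctrl replicate 1 or Ctrl replicate 2 only 3 genes of this list fell. Cd247 passed the filter through its Ctrl libraries alone, and with the filter on the mean 5 of 8 fell.

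**Figure D3:**
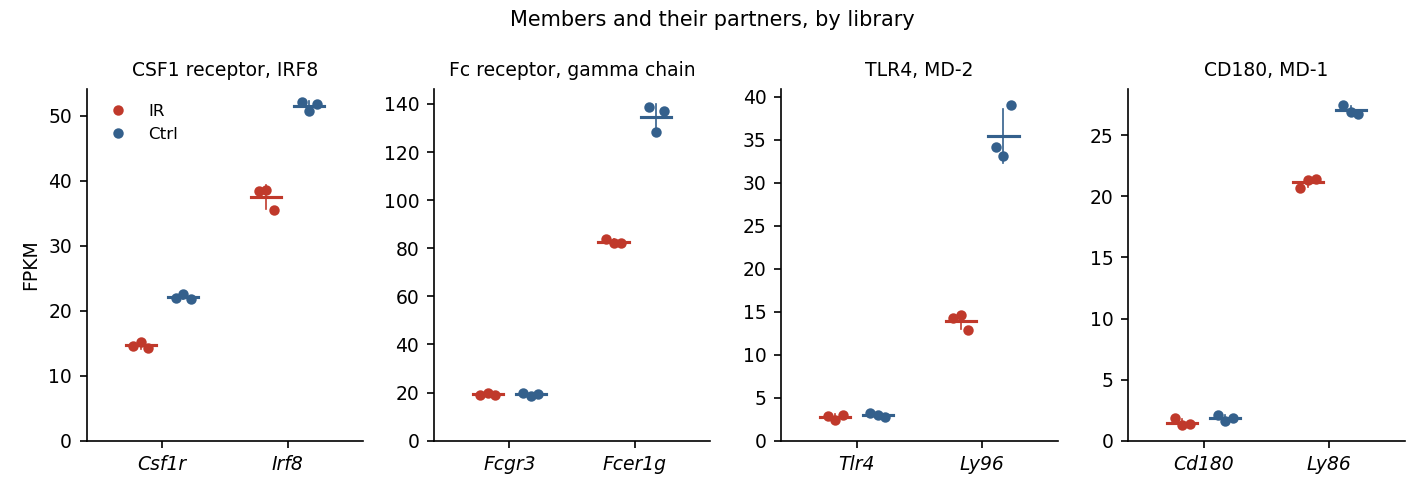
FPKM of members and partner genes in each library, with IR (red) left of Ctrl (blue), means as bars and SD as vertical lines (n = 3 each). Irf8, Fcer1g, Ly96 and Ly86 lie lower in IR without overlap, whereas Fcgr3, Tlr4 and Cd180 overlap between the groups.

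Cd14 and Ly86 belong to the sensing of bacterial lipopolysaccharide. Ly86 encodes MD-1, the secreted partner of the receptor CD180 (chromosome 13, 37345208 to 37419036), and had 20.7, 21.4 and 21.4 FPKM in IR libraries, against 27.5, 26.9 and 26.8 FPKM in Ctrl libraries. All IR libraries lay below all Ctrl libraries, and the log2 fold change was -0.34 (SE 0.033, limma adjusted p = 1.82e-05). Cd180 itself had 1.47 ± 0.308 FPKM in IR and 1.86 ± 0.228 FPKM in Ctrl and was not called (limma adjusted p = 0.0809), but it was without IR replicate 1 (log2 fold change -0.31, adjusted p = 0.0131). The log2(FPKM + 1) of Ly86 minus that of Cd180 averaged 3.17 in IR and 3.298 in Ctrl and overlapped between the groups. An exact permutation test, 2-sided, gave p = 0.5 (adjusted p = 0.5 over the 3 pairs). The added 1 weighs more on the low values of Cd180, so this difference is not the log2 ratio of FPKM.

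Cd14, the co-receptor that hands lipopolysaccharide to TLR4 (chromosome 18, 36725067 to 36726798), had 1.76, 1.43 and 1.30 FPKM in IR libraries, against 1.83, 1.92 and 1.88 FPKM in Ctrl libraries. The IR libraries were lower without overlap but varied more among themselves, and IR replicate 1 nearly reached the Ctrl range. The fall of 0.21 on the log2 scale (limma adjusted p = 0.0360) rested on 31 to 45 fragments in an IR library and 44 to 51 in a Ctrl library. It missed the threshold when any 1 of Ctrl replicates 1, 2 and 3 or IR replicates 2 and 3 was left out (adjusted p = 0.0643 to 0.129), with quantile normalization (adjusted p = 0.123) or without a filter (adjusted p = 0.0542).

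Among the other genes of lipopolysaccharide sensing, Ly96 showed the lowest log2 fold change. It encodes MD-2, the lipid-binding partner of TLR4, and had 14.3, 14.6 and 12.8 FPKM in IR libraries, against 34.2, 33.1 and 39.1 FPKM in Ctrl libraries, 2.55-fold lower in IR (log2 fold change -1.29, limma adjusted p = 2.46e-07). Tlr4 had 2.78 ± 0.305 FPKM in IR and 3.01 ± 0.258 FPKM in Ctrl and was not called (adjusted p = 0.363). The log2(FPKM + 1) of Ly96 minus that of Tlr4 averaged 1.98 in IR and 3.19 in Ctrl, again without overlap. An exact permutation test, 2-sided, gave p = 0.1, the smallest possible (adjusted p = 0.15 over 3 pairs). Lbp, the lipopolysaccharide-binding protein, and the adaptor gene Myd88 fell by 0.26 and 0.27, and the kinase gene Irak1 rose by 0.50. Of 14 genes listed besides the members, 13 were tested, 6 fell, 2 rose and 5 were not called (median -0.17).

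Lyz2, Mpeg1 and Cd68 act in lysosomes and phagosomes. Lyz2, the lysozyme of macrophages and neutrophils that cleaves bacterial cell walls (chromosome 10, 117277331 to 117282321), was the most abundant member by far. It had 438, 435 and 437 FPKM in IR libraries, against 512, 510 and 508 FPKM in Ctrl libraries, above 98.5% of all genes tested in the IR means and 98.8% in the Ctrl means. The groups were narrow and apart, with a log2 fold change of -0.22 (SE 0.017, limma adjusted p = 3.37e-06). Between 8288 and 9103 fragments stood behind an IR value and 9635 to 10933 behind a Ctrl value.

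Lyz2 has a neighbour, Lyz1, the lysozyme of Paneth cells, whose coding sequence is 95.0% identical over 444 bases. The first 90 coding bases of each are printed to show how far reads can be assigned, and the 7 bases that differ are in capitals (GENCODE M21).
Lyz2: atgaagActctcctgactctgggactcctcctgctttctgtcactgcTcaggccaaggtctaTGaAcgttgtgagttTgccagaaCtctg
Lyz1: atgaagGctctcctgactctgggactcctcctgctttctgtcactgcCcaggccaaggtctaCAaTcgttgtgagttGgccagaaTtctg
Of the windows of 50 bases in the Lyz2 transcript, 15.4% also occur in Lyz1. Lyz1 was at 0.301, 0 and 0.110 FPKM in IR libraries, against 0.321, 0.535 and 0.274 FPKM in Ctrl libraries, so the reads assigned to it are few beside those of Lyz2.

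Mpeg1 encodes perforin-2, a pore-forming protein of phagocytes (chromosome 19, 12460779 to 12465283). It had 1.11, 0.753 and 0.948 FPKM in IR libraries, against 2.04, 1.65 and 1.495 FPKM in Ctrl libraries. No IR library reached the lowest Ctrl library, although both groups spread widely at this low level, with 48 to 76 fragments in an IR library and 93 to 131 in a Ctrl library. The log2 fold change was -0.49 (SE 0.093, limma adjusted p = 0.00135) on a scale that understates the 1.85-fold ratio of the means. Cd68, the lysosomal glycoprotein macrosialin (chromosome 11, 69664213 to 69666153), had 43.3, 42.4 and 47.4 FPKM in IR libraries, against 48.6, 49.3 and 43.7 FPKM in Ctrl libraries. One library of each group lay inside the range of the other, IR replicate 3 and Ctrl replicate 3. Cd68 was not called (log2 fold change -0.08, 95% confidence interval -0.20 to 0.03, limma adjusted p = 0.190), but it was without Ctrl replicate 3 (log2 fold change -0.14, adjusted p = 0.0321).

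Lysosomal genes outside the list moved mostly down. Of 14 genes listed besides the members, 13 were tested, 9 fell, Hexa rose and 3 were not called, with a median of -0.16. Ctss, the cathepsin that trims the class II invariant chain, was 1.82-fold lower in IR, and Lgmn, the asparaginyl endopeptidase legumain, fell to 4.91 ± 0.322 FPKM in IR, against 13.4 ± 0.467 FPKM in Ctrl (limma adjusted p = 6.74e-08). Hexa, a subunit of the enzyme beta-hexosaminidase, was 1.20-fold higher, and Ctsb, cathepsin B, was 1.18-fold lower.

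Cd163 and Adgre1 are surface proteins of tissue macrophages. Cd163, the scavenger receptor for hemoglobin bound to haptoglobin (chromosome 6, 124304656 to 124330527), had 4.29, 4.17 and 4.75 FPKM in IR libraries, against 6.38, 6.51 and 6.94 FPKM in Ctrl libraries. The groups did not overlap (log2 fold change -0.49, SE 0.057, limma adjusted p = 6.14e-05). Adgre1 encodes F4/80, the adhesion receptor long used to stain mouse macrophages (chromosome 17, 57358691 to 57483527). It had 0.821, 0.629 and 0.471 FPKM in IR libraries, against 1.07, 1.39 and 1.41 FPKM in Ctrl libraries, about 22 to 42 fragments in an IR library and 51 to 73 in a Ctrl library. The ratio of the Ctrl mean to the IR mean was 2.01, and the log2 fold change was -0.48 (SE 0.095, limma adjusted p = 0.00175). Leaving out any Ctrl library took Adgre1 below the filter, so that it could be tested in only 3 of the 6 fits with a library left out, in which it kept its call.

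Counts in related families are given beside these. Of 11 other scavenger receptor genes 3 could be tested, Scarb1, Scarf1 and Scarb2, and none was called, at log2 fold changes of 0.04, -0.01 and -0.01. None of the 3 had an unadjusted p under 0.05 either, and without a filter 1 gene of this list fell. Msr1 and Marco, both scavenger receptors of macrophages, were listed at 0 in every library. Of 9 other adhesion G-protein-coupled receptor genes 6 were tested, 2 fell and 2 rose. Adgrl2 was 2.57-fold higher in IR, and Adgrl4, known from endothelial cells, was 1.26-fold lower.

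In order of FPKM, which is scaled by length, the IR means ran Lyz2, Cd68, Ly86, Fcgr3, Csf1r, Cd163, Cd14, Mpeg1, Adgre1 and Fcgr1. The Ctrl means had the same order except that Csf1r stood above Fcgr3. Neighbours whose libraries overlapped were Mpeg1 with Adgre1 and Adgre1 with Fcgr1 in IR, and Cd14 with Mpeg1 in Ctrl; all other neighbours were apart in each group. The 10 genes summed to 540.8 to 547 FPKM in IR libraries and 632 to 642 FPKM in Ctrl libraries, of which Lyz2 made up 79.9% to 80.5% in IR and 79.8% to 80.4% in Ctrl.

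The genes lie on 9 chromosomes, with Csf1r and Cd14 on the same one. Of the 10 genes, 7 were searched in the RefSeq promoter table (GRCm38.p6, 250 bases before to 50 after the start). Csf1r and Cd14 were left out of this search, so nothing is said of their promoters, and Adgre1 had no promoter listed. The letters GAGGAA, the core that PU.1 is known to prefer, were searched on both strands, and they occurred in Cd68, Fcgr1 and Fcgr3 and in none of Lyz2, Cd163, Mpeg1 and Ly86. They occurred in 31.3% of all 27025 genes with a promoter listed. The letters TTGNNCAA, a form of the C/EBP site, occurred in none of the 7 and in 7.36% of all genes. These 7 members had 1 to 13 CpG in this window, with 13 in Ly86, against a median of 7 over all 32851 promoters. Bases before the start that lie in no annotated exon are printed for the called Lyz2 and Ly86, the uncalled Cd68 and the untested Fcgr1. GAGGAA or its reverse complement is in capitals. The stretches lie at chr10:117282322-117282522 on the minus strand, chr13:37345095-37345207 on the plus strand, chr11:69666171-69666420 on the minus strand and chr3:96293970-96294219 on the minus strand.
Lyz2: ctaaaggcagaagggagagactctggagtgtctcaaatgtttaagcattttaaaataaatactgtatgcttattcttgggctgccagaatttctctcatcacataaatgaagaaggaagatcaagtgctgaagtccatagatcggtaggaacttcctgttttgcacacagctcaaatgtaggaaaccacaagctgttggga
Ly86: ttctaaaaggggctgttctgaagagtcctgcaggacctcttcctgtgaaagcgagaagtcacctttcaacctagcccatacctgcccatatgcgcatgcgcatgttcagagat
Cd68: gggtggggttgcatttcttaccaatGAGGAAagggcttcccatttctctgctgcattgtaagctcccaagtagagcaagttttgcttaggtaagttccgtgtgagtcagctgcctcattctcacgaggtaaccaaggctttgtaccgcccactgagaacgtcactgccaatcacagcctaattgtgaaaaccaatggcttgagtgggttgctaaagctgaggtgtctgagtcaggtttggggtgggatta
Fcgr1: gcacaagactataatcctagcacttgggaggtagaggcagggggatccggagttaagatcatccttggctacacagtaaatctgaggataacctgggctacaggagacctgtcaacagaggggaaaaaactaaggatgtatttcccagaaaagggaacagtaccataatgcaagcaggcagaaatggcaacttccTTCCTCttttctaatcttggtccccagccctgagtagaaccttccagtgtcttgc
These matches describe letters only, and a window without them says nothing of the factor.

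Other genes of monocytes were lower in most cases where they could be tested. Of 28 listed, 21 passed the filter, of which 13 fell, 2 rose and 6 missed the threshold (median -0.39 on the log2 scale). Itgam, the integrin CD11b, fell to 6.77 ± 0.394 FPKM in IR, against 13.6 ± 0.154 FPKM in Ctrl (limma adjusted p = 3.18e-07), and Ccr2, the chemokine receptor by which monocytes leave the marrow, fell to 12.95 ± 0.453 FPKM in IR, against 18.3 ± 0.205 FPKM in Ctrl (adjusted p = 7.03e-06). Ms4a6b was 1.39-fold lower. Ly6c2, the surface protein of classical monocytes, had 154 ± 5.82 FPKM in IR and 147 ± 3.01 FPKM in Ctrl and was not called (adjusted p = 0.0639), but it was higher without IR replicate 2 (log2 fold change 0.10, adjusted p = 0.00786). Ms4a3, a gene of granulocyte and monocyte progenitors, rose to 294 ± 2.79 FPKM in IR, against 219 ± 3.70 FPKM in Ctrl (adjusted p = 2.24e-07). The 28 genes summed to 1179 to 1200.0 FPKM in IR libraries and 1264 to 1282 FPKM in Ctrl libraries. Of 6 markers taken to define monocytes, 5 were tested, of which 3 fell and F13a1 rose. Cd300e stayed under 1 FPKM in every library. F13a1, named after its values were seen, had 25.4 ± 0.635 FPKM in IR and 22.7 ± 1.35 FPKM in Ctrl (limma adjusted p = 0.01245).

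Genes of mature macrophages followed at lower levels. Of 22 listed besides the members, 8 were tested, 7 fell, none rose and C1qc was not called (median -0.40); Marco, Msr1, Clec4f and Lyve1 were listed at 0 in all 6 libraries. The iron exporter gene Slc40a1 was 1.92-fold lower, the receptor kinase gene Axl 1.74-fold and the adhesion molecule gene Vcam1 1.46-fold. Spic, a transcription factor of red pulp and marrow macrophages, was 2.22-fold lower, and it would not have passed the filter without its Ctrl libraries. C1qa, a chain of complement C1q, had 2.41 ± 0.588 FPKM in IR and 3.27 ± 0.167 FPKM in Ctrl (limma adjusted p = 0.0189), C1qb had 4.53 ± 0.875 FPKM in IR and 6.17 ± 1.30 FPKM in Ctrl (adjusted p = 0.0390), and both calls were lost without Ctrl replicate 1 or 2 or IR replicate 1 or 3 (adjusted p = 0.0562 to 0.147). C1qc was called lower without Ctrl replicate 1 or IR replicate 3 (adjusted p = 0.0359 and 0.0207). The list summed to 25.3 to 26.4 FPKM in IR libraries and 34.05 to 37.9 FPKM in Ctrl libraries. Of 8 markers taken to define these cells, Marco was at 0 and Siglec1, Vsig4 and Cd5l stayed under 1 FPKM in every library; the part of such cells in the member values was not tested.

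**Figure D4:**
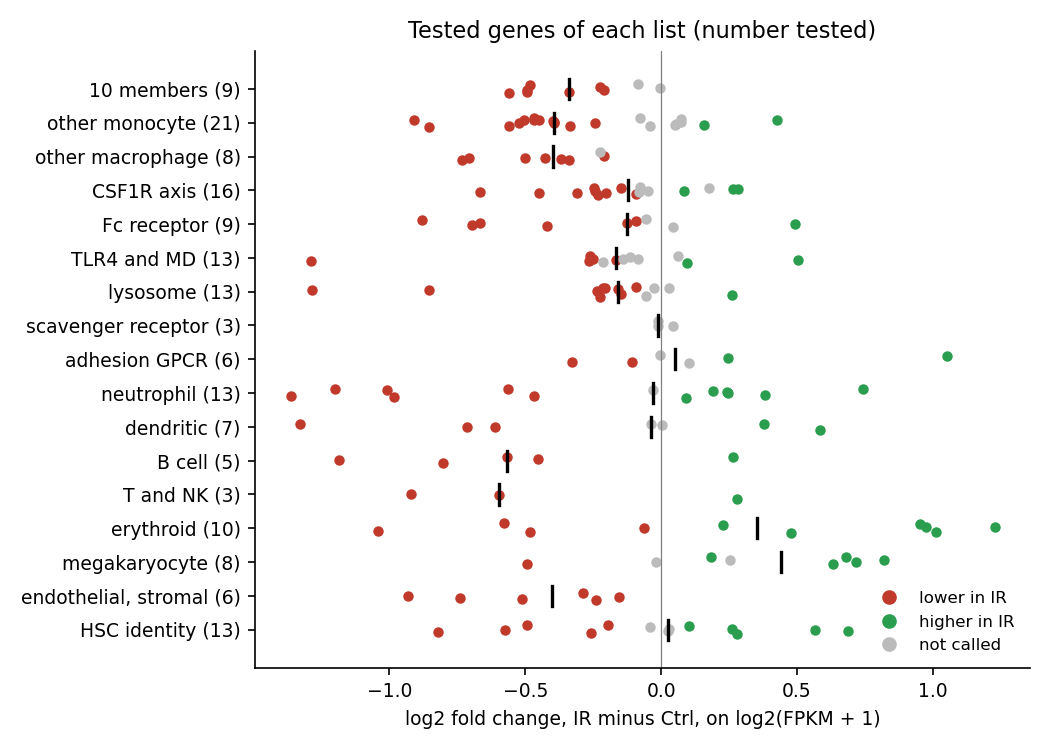
Log2 fold change, IR minus Ctrl on the log2(FPKM + 1) scale, of the tested genes of each list, with the median as a black bar and the number tested in brackets; members are left out of the other lists, and lists share some genes. The tested members lie between -0.56 and -0.0040, while the neutrophil, erythroid and HSC identity lists hold genes on both sides. The other macrophage list and the endothelial and stromal list have no gene called higher either, at medians of -0.40 in each.

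Markers of other cells moved in both directions. In the neutrophil list S100a8, S100a9, Ngp, Camp, Ltf and Retnlg fell and Lcn2, Csf3r, Elane, Prtn3, Mpo and Ctsg rose, 6 and 6 of 13 tested, some of them named after their values were seen. Ngp was 3.11-fold lower in IR, whereas Mpo had 2665 ± 7.99 FPKM in IR and 2253 ± 9.23 FPKM in Ctrl, and Elane 949 ± 29.2 FPKM in IR and 728 ± 16.7 FPKM in Ctrl. The 6 markers taken to define neutrophils were all called lower, although Ltf and Retnlg passed the filter through their Ctrl libraries alone, and they summed to 79.3 to 81.3 FPKM in IR libraries and 128 to 131 FPKM in Ctrl libraries. Defining markers of T cells (Cd3e, Cd3d, Cd3g) stayed under 1 FPKM in every library, as did Xcr1, Clec9a and Zbtb46 of dendritic cells. In the dendritic list 3 of 7 tested genes fell and H2-Aa and H2-Eb1 rose, the latter named after its values were seen. Siglech and Itgax, 2 of the 3 that fell, passed the filter through their Ctrl libraries alone, and the mean filter gave 2 lower and 2 higher of 6. In the B-cell list 4 of 5 tested genes fell, Cd79b, Vpreb1, Igll1 and Rag2 (median -0.57 on the log2 scale). Cd79a, named after its values were seen, rose. Rag2 passed the filter through its Ctrl libraries alone, and Igll1 would not have passed without its own. Endothelial and stromal genes fell in 6 of 6 tested cases, of which Cldn5 passed through its Ctrl libraries alone, and in 5 of 5 with the mean filter. Erythroid genes rose in 6 of 10 and fell in 4, and megakaryocyte genes rose in 5 of 8 and fell in 1. Of the sorted markers, Kit was not called at 96.7 ± 1.65 FPKM in IR and 97.5 ± 1.72 FPKM in Ctrl. Slamf1 rose, and Ly6a, Flt3 and Cd48 fell. Flt3 had 65.7 ± 1.43 FPKM in IR and 125 ± 1.58 FPKM in Ctrl, although the gate removed cells with the protein. Cd48, whose protein was also gated out, averaged 351.6 FPKM in IR and 400.1 FPKM in Ctrl. Among genes of required proteins, Slamf1 (CD150) averaged 5.059 FPKM in IR and 3.565 FPKM in Ctrl. Ly6a (Sca-1) averaged 156.7 FPKM in IR and 202.8 FPKM in Ctrl. How well the sorted cells matched the gate was not tested. The part of these genes' cells in the member values was not tested.

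Over the 6 libraries, the genes whose log2(FPKM + 1) followed Csf1r most closely among 7436 tested genes that averaged 5 FPKM or more were Arhgap9, Ankrd11, Wasf2, Serpinb6a and Fuca1, with Pearson correlations of 0.9988 to 0.9991. As many as 161 genes reached 0.99, and all these values share the same 6 libraries and the 2 groups.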

How the data were processed

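RNA of sorted HSCs was measured in 6 libraries, 3 IR and 3 Ctrl, grouped by their titles. The authors deposited FPKM by gene symbol, made with fastp, HISAT2 and StringTie on GRCm38 (mm10), per the submitters' processing notes; no source used here gives versions, settings or annotation. That the values are FPKM was inferred from these tools and from the columns, which sum to between 486033 and 490697. Of 21878 entries, 27 carried a date in place of a symbol and were left out.

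Low values of genes with 1 annotated transcript lay within 0.01 of whole multiples of a step in 24.9% to 28.6% of cases, too few to recover reads, and gave about 14400000 to 16300000 fragments per library. Fragments behind a gene are estimates from this depth and its longest coding transcript in GENCODE M21, and cover counting error only.

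The 10281 genes that reached 1 FPKM in 3 or more libraries entered a limma fit (version 3.58.1, R 4.3.3) of log2(FPKM + 1) (moderated variances with a trend on the mean, 2-sided, Benjamini-Hochberg adjusted p under 0.05), after a test on simulated data. A fold change on this scale understates that of low genes; ratios are of mean FPKM. The members and lists were chosen with earlier results of these data known. Named were all members, their partners and sorted markers, the 4 list genes of smallest p, and the 5 genes most like Csf1r. Defining markers and some list genes at 0 in every library were named too. Others are said to be picked after their values were seen. Some genes that this rule names are not reported here. No label says that libraries came from separate mice, so p-values reflect the spread among these 6 samples alone, and that spread may be technical. No library pair held an identical value above 0, with Pearson correlations of 0.9982 to 0.9985 within groups.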

Additional observations from a re-analysis of the deposited data

How the results depend on the processing

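Over 16 alternatives (pseudocounts of 0.1 and 5, other or no filters, including one on the mean of 6 libraries chosen after seeing the data, other scalings, no trend, a replicate block and each library left out), the members gave 137 other values of the fold change, of which none reversed a call, 7 lost one and 1 gained one; the 7 were all Cd14 and the 1 was Cd68. With a filter of 5 FPKM only 6 members were tested and 4 of them were lower, of which Cd163 reached 5 FPKM in its Ctrl libraries alone. Leaving out 1 library gave 5 to 7 members lower, 2320 to 2413 genes higher and 2547 to 2765 lower over all genes. Same-numbered libraries of the 2 groups did not deviate together (correlations of -0.047 to 0.01). That alone cannot show whether the numbers pair libraries, and no label says that they do. The replicate block gave 2840 genes lower, 2539 higher and 7 members lower. Quantile normalization turned the split of called genes to 47.8% lower, against 52.9% as reported, and moved the median of all genes to 0.01. In the lists, a filter of 5 FPKM left 1 macrophage gene lower (of 1 tested) and 3 neutrophil genes lower (of 10 tested), the list of TLR4 and MD genes had 1 riser in place of 2 in 7 alternatives, and 4 other monocyte genes rose without a filter, against 2 as reported. Cd180 and C1qc were called under the replicate block (adjusted p = 0.0289 and 0.00976), and Ly6c2 with median-ratio scaling (adjusted p = 0.0436). Depth limits Fcgr1, Adgre1, Cd14 and Mpeg1, each on at most 131 fragments a library.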
